A study of Arabidopsis thaliana with 8 samples.

Results

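At 10 days of growth, 4 arrays compared the RNA of Arabidopsis thaliana plants that overexpress PK12 with that of non-transformed plants, and arrays 60 and 61 differed from arrays 56 and 57 in a set of named genes. PK12 belongs to the LAMMER protein kinases, which act on proteins of the splicing machinery. Each array was hybridised with total RNA of non-transformed plants (channel 1) and of PK12 plants (channel 2), grown under long days, on glass slides printed with expressed sequence tags (ESTs, partial sequences of cloned transcripts). Another 4 arrays, named b100, b90, t100 and t90 and of another EST set, measured both kinds of plant at 21 days. The labels state neither the numerator of the deposited ratio nor the dyes, promoter, number of PK12 lines or pooling of plants, so values are given as higher or lower ratios and not as induction or repression by PK12.

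For each EST with a value on all 4 of the 10-day arrays, the split was the mean log2 ratio of arrays 60 and 61 minus that of arrays 56 and 57, with each array centred on its median. The values that chose the genes are the splits themselves, and the pairing of the arrays was noticed in these data. The labels state that the 4 arrays include 2 independent biological experiments and do not say which arrays share one. Splits are therefore described here without a test. A threshold of 1.5 on the log2 scale, a 2.83-fold difference between ratios, was passed by 329 of 11956 ESTs (2.75%). Of these, 105 were higher and 224 lower on arrays 60 and 61. After averaging the ESTs of a gene, 69 of 3517 named genes (1.96%) passed, of which 10 were higher (0.284%) and 59 lower (1.68%).

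The 3 genes that mark this comparison belong to processes with well-known timing in the plant. PAP85 is a vicilin-like storage protein laid down in the maturing seed, and ICL is isocitrate lyase, an enzyme of the glyoxylate cycle with which a seedling turns stored seed oil into sugar. Both kinds of product are typical of late seed development and of early growth after germination, and their transcripts decline as leaves take over. KIN2 is a small cold-regulated protein whose transcript accumulates in cold, drought and abscisic acid.

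Each array pair of the split was moderately alike over all ESTs, with a Pearson correlation of 0.55 between arrays 56 and 57 and of 0.57 between 60 and 61. Arrays 56 and 60 (0.62) and arrays 57 and 61 (0.64) were more alike than either pair of the split, and arrays 56 and 61 (0.37) and 57 and 60 (0.28) less so. The SD of the log2 ratios over ESTs lay between 0.74 (array 61) and 0.92 (array 56). The correlations run across 11956 ESTs of the same arrays, which are not independent replicates. The split over all named genes had a median of -0.07 and an SD of 0.57, so the 69 genes lie in the tails of a distribution centred near 0. The 5th and 95th percentiles of the gene split were -1.04 and 0.76, and the lower tail was the longer.

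**Figure D1:**
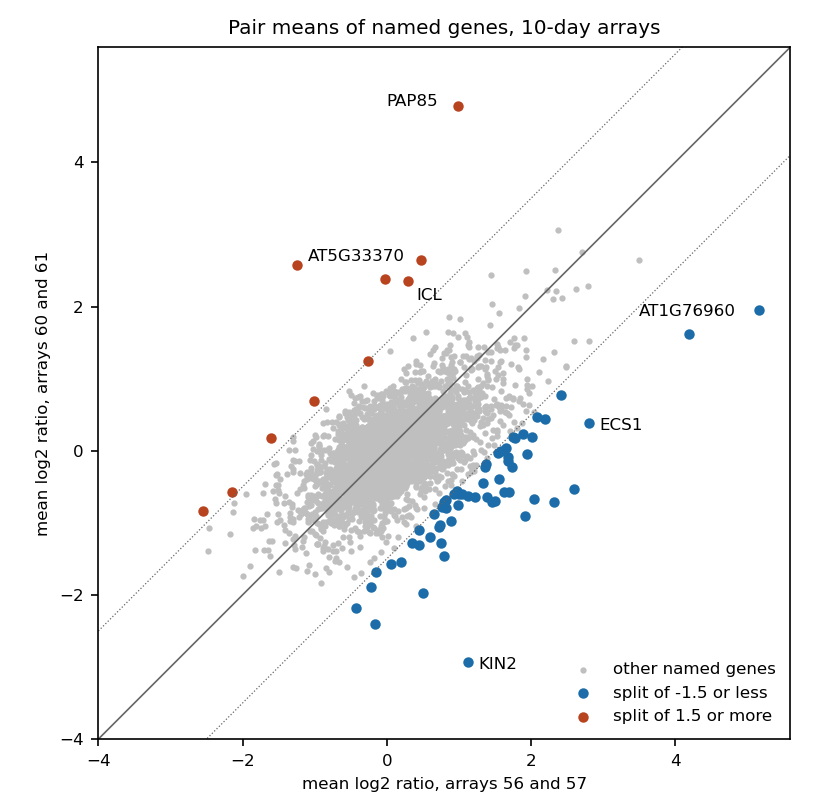
Mean log2 ratio of each of 3517 named genes on arrays 56 and 57 (horizontal axis) and on arrays 60 and 61 (vertical axis), with the line of equal values and dotted lines at a split of 1.5 and -1.5. The 10 genes above the upper dotted line are in red and the 59 below the lower one in blue, with PAP85 and KIN2 farthest out among the 3 marker genes.

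The storage protein gene PAP85 and the glyoxylate cycle gene ICL stood higher on arrays 60 and 61. PAP85 had log2 ratios of 0.73 on array 56, 1.23 on array 57, 4.70 on array 60 and 4.85 on array 61. All 4 values were positive and the pairs did not overlap, with a split of 3.79 and an SD within pairs of 0.26 (n = 2 arrays a pair). ICL, averaged over 7 ESTs, had ratios of 0.39, 0.19, 2.13 and 2.57 in the same order, a split of 2.06. ICL was thus close to the array median on arrays 56 and 57 and well above it on the other pair. KIN2 moved the other way, with 0.77 on array 56, 1.501 on array 57, -3.15 on array 60 and -2.73 on array 61. Its split of -4.07 was the lowest of all named genes, and its ratio changed side between the pairs. PAP85 and KIN2 each rested on 1 EST. RNA came from whole plants as far as the labels say, so fewer cells of a type and less RNA per cell cannot be told apart.

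Of the other genes higher on arrays 60 and 61, AT5G33370, a GDSL-type esterase or lipase, had the highest split of all named genes at 3.82. Its log2 ratios were -1.19, -1.29, 2.88 and 2.27 on arrays 56, 57, 60 and 61, so it too lay on opposite sides of 0. AT1G04660, which encodes a glycine-rich protein, had 0.27, 0.69, 2.74 and 2.56, a split of 2.17. AT1G48090, a large protein related to the VPS13 family of lipid transfer proteins, had -0.13, 0.08, 1.60 and 3.17. Its split of 2.41 rested on array 61 more than on array 60. AT5G49440, of no stated function here, was negative on all arrays, at -2.72, -2.37, -0.88 and -0.80, and was less so on arrays 60 and 61 (split 1.71). AT5G35735, a DOMON-domain protein with a cytochrome b561 part, had -0.23, -0.30, 1.20 and 1.30 (split 1.52).

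The remaining 3 of the 10 owed much of their split to array 56. AT3G15120, a predicted AAA-type ATPase, had -2.06 on array 56 and 0.04, 0.48 and 0.91 on arrays 57, 60 and 61. AT5G05570, a tomosyn-like protein of vesicle traffic, had -3.29 on array 56 and 0.08, -0.62 and 0.97 on the others. AT1G60900, a large subunit of the splicing factor U2AF, had -3.55, -0.73, -1.25 and 0.11. In the last 2 genes the array pairs overlapped. Among the 69 genes, the 5 whose 4-array profile correlated most with that of PAP85 were AT5G49440 (Pearson 0.999), AT1G04660 (0.996), AT5G35735 (0.992), AT5G33370 (0.984) and ICL (0.980), each over 4 arrays that the choice of genes had already used.

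Of the 59 genes lower on arrays 60 and 61, KIN2 was the 1 gene on the pathway lists used here, and the others are grouped below by role, after their values had been seen. AT1G76960, of no stated function here, had log2 ratios of 4.69, 5.65, 1.57 and 2.33 on arrays 56, 57, 60 and 61 (split -3.22). AT5G42530, likewise without a stated function, had 4.45, 3.94, 1.69 and 1.56 (split -2.57). Both were strongly positive on every array, and the pairs differed in how far above 0 they lay. AT4G19190, a zinc knuckle protein, had 2.19, 2.99, -1.21 and 0.14 (split -3.13).

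A further 3 genes with large negative splits changed side between the pairs. AT4G14020 had 2.79, 1.86, -0.41 and -1.01 (split -3.04). AT2G31130 had 2.23, 1.60, -0.41 and -1.39 (split -2.81). AT5G54660, related to the small heat shock proteins, had 2.73, 1.37, -0.25 and -1.10 (split -2.72). In each of them arrays 56 and 57 were positive and arrays 60 and 61 negative.

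Several genes of the lower group encode proteins of the cell wall or the cell surface. ECS1, a cell wall protein, had log2 ratios of 2.88, 2.74, 0.43 and 0.33 averaged over 5 ESTs (split -2.43). AT5G62150, with a LysM domain of the kind that binds chitin-like sugars, had 1.16, 2.23, -0.69 and -0.46 (split -2.27). AT2G23950, a leucine-rich repeat receptor kinase, had a split of -2.24, with 0.47 and 1.11 on arrays 56 and 57 and -1.79 and -1.12 on 60 and 61. AT5G06630, an extensin-like structural protein of the wall, had the same split of -2.24 but lay near 0 on arrays 56 and 57 (-0.56 and 0.24) and at -2.81 and -2.01 on the other pair. AT3G28550, another extensin-like protein, had a split of -1.54.

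Proteins with roles in defence or stress were also among the lower genes. AT2G43535, a defensin-like trypsin inhibitor, had 1.46, 1.54, -0.50 and -0.89 (split -2.20). AT3G53980, of the lipid transfer protein superfamily, and AT3G53990, a universal stress protein, are next to each other on chromosome 3 and had splits of -2.17 and -1.83. On arrays 56, 57, 60 and 61 the first had 0.75, 2.17, -0.70 and -0.72, and the second had 1.35, 2.03, -0.05 and -0.23. AT5G20500, a glutaredoxin, which reduces disulfides with glutathione, had 2.18, 1.98, 0.58 and 0.34 (split -1.62). AT1G54410, the small dehydrin HIRD11, had 1.15, 0.44, -0.45 and -0.98 (split -1.51).

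Chloroplast, mitochondrial and ribosomal proteins were found there as well. AT1G51400, a small protein of photosystem II, had 0.90, 0.10, -1.74 and -2.19 over 2 ESTs (split -2.47). AT3G03070, related to subunits of the mitochondrial NADH-ubiquinone oxidoreductase, had 0.53, 0.79, -1.70 and -0.06 (split -1.54), so that array 60 carried most of it. AT4G31985, a ribosomal protein L39, had 2.36, 2.48, 1.15 and 0.41 (split -1.64).

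**Figure D2:**
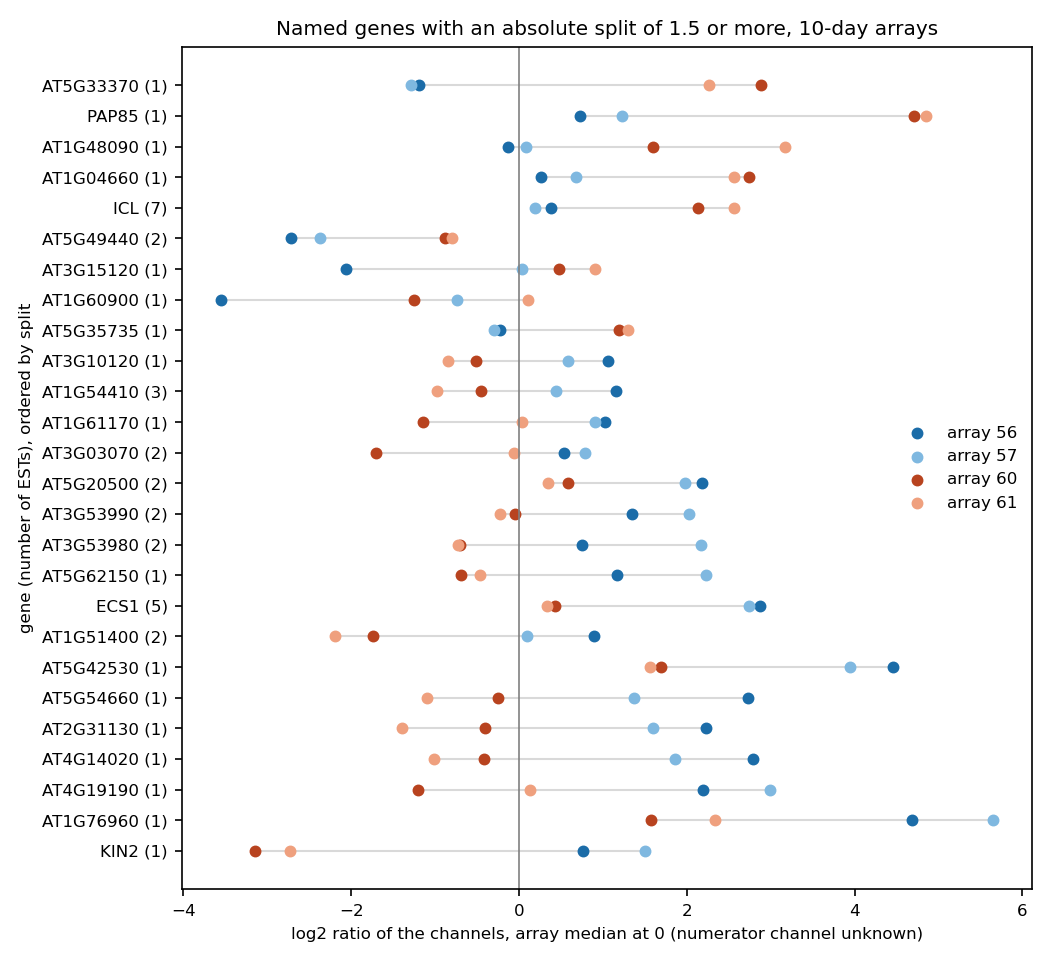
Log2 ratio on arrays 56, 57 (blue) and 60, 61 (red) of 26 named genes with a split of 1.5 or more in size, ordered by split, with the number of ESTs averaged in brackets and a grey line from the lowest to the highest array. KIN2 at the bottom lies at 0.77 and 1.501 on arrays 56 and 57 and at -3.15 and -2.73 on the others, and AT1G60900 shows overlapping pairs.

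More of the 69 genes departed from the array median on arrays 56 and 57 alone than on 60 and 61 alone. The same count was not made over all named genes. Over all ESTs the SD of the log2 ratios was 0.92 and 0.84 on arrays 56 and 57, and 0.82 and 0.74 on arrays 60 and 61. The counts are therefore not read as a trait of these genes. With a departure taken as a pair mean of 1 or more in size, 36 genes departed on arrays 56 and 57 alone (4 of the higher and 32 of the lower genes). A further 20 departed on arrays 60 and 61 alone (5 higher and 15 lower). AT5G33370 and KIN2 departed on both pairs with opposite signs, AT1G76960 and AT5G42530 on both with the same sign, and 9 on neither. The median pair mean of the 59 lower genes was 1.33 on arrays 56 and 57 and -0.64 on arrays 60 and 61. For the 10 higher genes it was -0.64 and 1.80.

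Arrays of a pair differed by less than the split in most of these genes. In 63 of 69 genes both of arrays 60 and 61 lay on one side of both of arrays 56 and 57 (8 higher and 55 lower), and over all named genes 1394 did (39.6%), a contrast on which the rule itself had acted. The median SD within pairs was 0.45 in the 69 genes and 0.33 over all named genes. In 44 of the 69 genes each pair's own difference was under 0.5 of the split. In 11 genes the arrays of a pair differed by as much as the split or more, in 4 through arrays 56 and 57 and in 7 through arrays 60 and 61. AT3G28310 was one, with 0.80 and 1.22 on arrays 56 and 57, -2.20 on array 60 and 1.002 on array 61. AT4G30010 was another, with -2.51 on array 60 and 0.55 on array 61.

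The number of genes past the threshold depended on single arrays. With the mean of a pair replaced by its other array, 157 genes passed without array 56, 152 without array 57, 102 without array 60 and 133 without array 61, of which 55, 51, 48 and 55 were among the 69. On the higher side the counts were 16, 65, 41 and 11 in that order. Of the 69 genes, 29 stayed past the threshold without any of the 4 arrays in turn, 17 came under 1 in size without some array, and 0 changed sign. A threshold set elsewhere would move the list by genes of nearly equal value. Just inside lay AT5G35735 (1.52), AT1G60900 (1.57) and AT3G15120 (1.70) on the higher side and AT3G10120 (-1.5004), AT1G54410 (-1.51) and AT1G61170 (-1.53) on the lower. Just outside lay AT3G66654 (1.497), AT5G21940 (1.43), AT1G49030 (1.42), AT5G56670 (-1.499), AT3G03150 (-1.497) and AT5G50460 (-1.49).

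Separate ESTs of a gene are different spots of the same arrays. They show whether other spots assigned to the gene share a split, but not whether it recurs in other RNA. Of the 69 genes 60, PAP85, KIN2, AT5G33370 and AT1G76960 among them, rested on 1 EST (87.0%, against 70.7% of all named genes). In the 9 with more, the 18 ESTs beside the one with the largest split all had its sign, and 16 of them had a split of 1 or more in size. These genes were chosen on the mean of the same ESTs. The 7 ESTs of ICL had splits between 1.003 and 3.20, and 5 of them passed 1.5. One ICL spot reached this on array 61 alone, with 0.48 on array 60 and 3.22 on array 61.

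The 5 ESTs of ECS1 had splits from -3.25 to -0.86. Its lowest split came with ratios of 3.26, 3.49, -0.30 and 0.55 on arrays 56, 57, 60 and 61, and its weakest with 1.56, 1.05, 0.59 and 0.30. Both ESTs of AT1G51400 (-2.54 and -2.39) and of AT5G49440 (1.63 and 1.78) gave nearly the same split. The 3 ESTs of the dehydrin AT1G54410 did not, with -2.28, -2.22 and -0.04. The third of these lay between -0.58 and 0.26 on all arrays.

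A wider count started from the EST with the largest split of each gene. In the 64 genes with 2 or more ESTs whose leading EST passed 1.5, 124 of the 160 other ESTs (77.5%) had its sign, with a median split, turned to that sign, of 0.64. In the 966 genes whose leading EST did not pass, 62.5% of 1527 other ESTs had its sign. Of the other ESTs in the first set, 37.5% had a split of 1 or more toward the leading sign. No EST can exceed its leading EST in size, so the sets were formed from the values compared, and these shares are a description of the sets. Agreement was 83.7% where the leading EST was higher on arrays 60 and 61 (22 genes) and 74.8% where it was lower (42 genes). In several genes 1 spot stood alone. PYK10, a beta-glucosidase of root ER bodies, had 10 ESTs, 1 with a split of -2.07 and the others between -0.13 and 1.03. The 3 ESTs of AT3G26450 ran from -1.73 to 1.85.

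Some genes that missed the threshold on their mean had several ESTs that all moved to one side. These genes were picked after their values had been seen. Among genes with 3 or more ESTs, 20 had a split of 1 or more in size, and in 19 of them all ESTs had the same sign. A large mean of the same ESTs favours a single sign, so this count describes the 20 genes and is no check on them. CCL, a gene named for its resemblance to the circadian-regulated CCR genes, had 6 ESTs between -1.70 and -1.26 and ratios of 0.28, -0.09, -1.15 and -1.54 on arrays 56, 57, 60 and 61. It was near 0 on the first pair and negative on the second. AT4G15390, of the acyltransferase family that includes alkaloid and phenylpropanoid enzymes, had 6 ESTs between 0.98 and 2.17 (gene split 1.37), with -1.67 and -1.41 against -0.27 and -0.07.

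Others encode proteins of photosynthesis and stress responses. PSAE-1, a stromal subunit of photosystem I, had 8 ESTs between -1.47 and -0.49 (gene split -1.03). RCA, the activase that keeps Rubisco active, had 5 between 0.55 and 1.65 (1.10). AT3G32980, a secreted peroxidase, had 6 between 0.75 and 1.63 (1.22). AT3G62550, a universal stress protein, had 5 between -1.84 and -0.88 (-1.34). TIL, a lipocalin that protects membranes in heat and cold, had a gene split of -1.01 to which 1 of its 7 spots added much. That spot was at -5.88 on array 60 and 1.71 on array 61 (split -2.30), and the others had splits between -1.04 and -0.33. The exception to a single sign was AT1G07590, with 12 ESTs between -1.67 and 0.36.

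**Figure D3:**
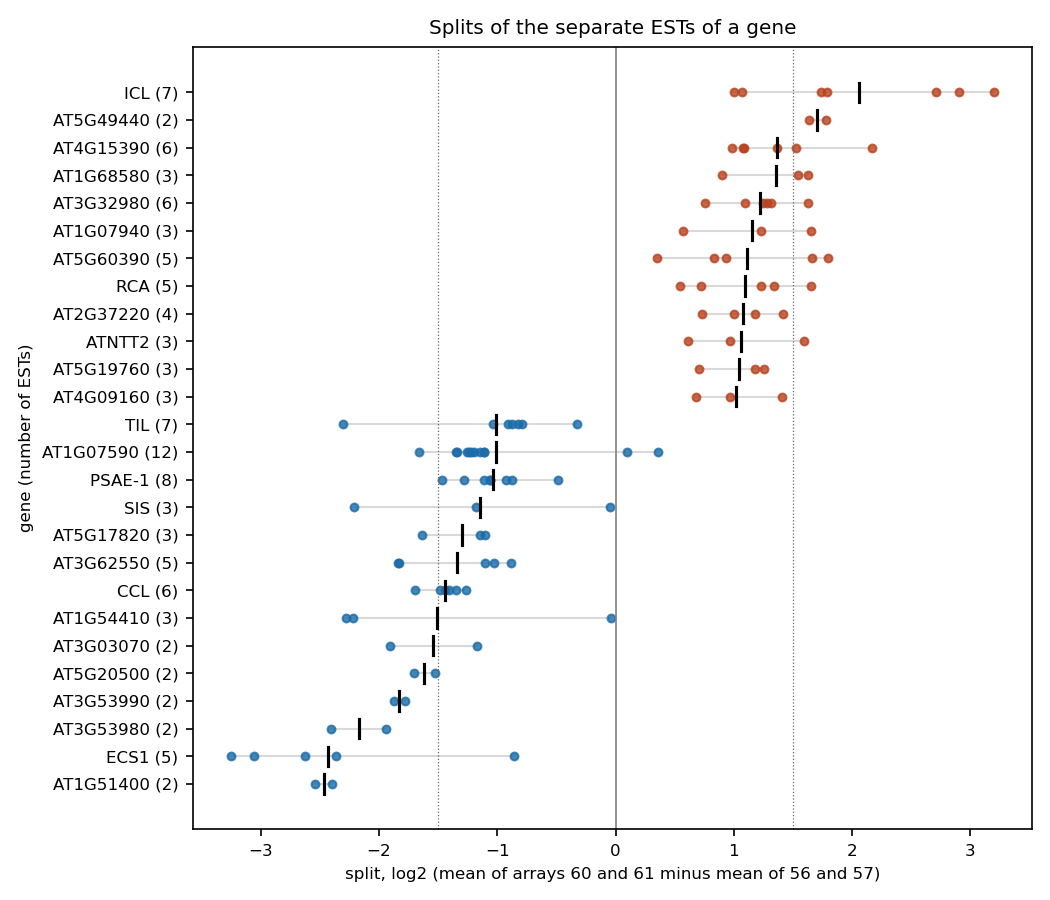
Split of each EST (points) and of the gene (black bar) for genes with 2 or more ESTs and a gene split of 1.5 or more in size, or with 3 or more ESTs and a gene split of 1 or more in size, with dotted lines at 1.5 and -1.5. The ESTs of CCL lie between -1.70 and -1.26, while those of AT1G54410 run from -2.28 to -0.04.

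The other genes of the pathways of PAP85, ICL and KIN2 were thinly covered, since 25 of the 205 genes on the lists used here had a named EST. Of 35 genes of seed maturation 3 were measured, 1 of them PAP85 itself, which was chosen for its split. All 3 had a positive split, as had 1578 of 3517 named genes. Beside PAP85 the measured genes were an oleosin, AT3G01570, which coats seed oil bodies (0.84), and LEA4-5, a late embryogenesis abundant protein (0.20). Each of them rested on 1 EST. The oleosin had -0.60, -0.42, 0.44 and 0.23 on arrays 56, 57, 60 and 61, a change of side that stayed under the threshold. Of 23 genes of lipid mobilisation 2 were measured, ICL and the oil body lipase SDP1, whose split was -0.19.

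Of 33 genes of the cold, dehydration and abscisic acid list 3 were measured and all had a negative split. KIN2, chosen for its split, is 1 of the 3, and over all named genes 1939 of 3517 splits were negative. COR47, a dehydrin, had -0.26, 0.06, -1.28 and -0.54 over 4 ESTs that disagreed in sign (gene split -0.81). LTI30, another dehydrin, had 0.47, 0.44, -0.75 and 0.30, so that its split of -0.68 came mostly from array 60. KIN2 was the 1 gene of this list past the threshold.

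The photosynthesis genes on the lists had small to moderate splits. All 8 measured genes of light harvesting and the photosystems, of 40 listed, had a negative split, between -1.03 (PSAE-1) and -0.05 (LHCB4.2), with a median of -0.25. Over all named genes 1939 of 3517 splits were negative, and LHB1B2 (-0.07), LHCB4.1 (-0.08) and LHCB4.2 lay at about the overall median of -0.07. All 3 measured Calvin cycle genes, of 20 listed, had a positive split. RCA had -2.48, -2.49, -1.22 and -1.55, PRK (phosphoribulokinase) had a split of 0.76 and SBPASE (sedoheptulose bisphosphatase) one of 0.39. None of these 11 genes passed the threshold. Of the 4 measured chaperone genes, of 19 listed, the splits lay between -0.69 (AT2G29500, a small heat shock protein) and 0.64 (AT3G09440, a cytosolic Hsp70). The root markers PYK10 (0.15) and BGLU21 (-0.24) had small splits, and the part of root tissue in the splits was not tested. The defence, senescence and flower lists had 0 genes among those measured and were not analysed here.

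A set of 4 gene families was put together after the values had been seen. ATG8 proteins, which coat forming autophagosomes, had 6 of 9 genes measured. Their splits were all negative, from -1.23 (ATG8E) to -0.22 (ATG8B), with a median of -0.94, and none passed the threshold. Over all named genes 1939 of 3517 splits were negative. In 4 of the 6 ATG8 genes the pairs did not overlap, and in ATG8B and ATG8C they did. ATG8E had 0.92, 0.91, -0.51 and -0.13 on arrays 56, 57, 60 and 61. All 3 measured genes of the translation elongation factor eEF1A, of 4, had positive splits from 0.80 to 1.15, and 1578 of 3517 named genes had a positive split. The eEF1A genes are near-identical copies, so their spots may read each other's transcripts.

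Larger families showed no single direction. Of 28 measured class III peroxidases, secreted enzymes of the cell wall, 16 had a positive and 12 a negative split, with a median of 0.10. AT1G05240 (-1.76) and AT5G51890 (-1.63) were among the 69 genes, and AT3G32980 (1.22) had the highest split of the family. The 3 measured extensins had -2.24 (AT5G06630), -1.54 (AT3G28550) and 1.27 (AT3G54580).

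**Figure D4:**
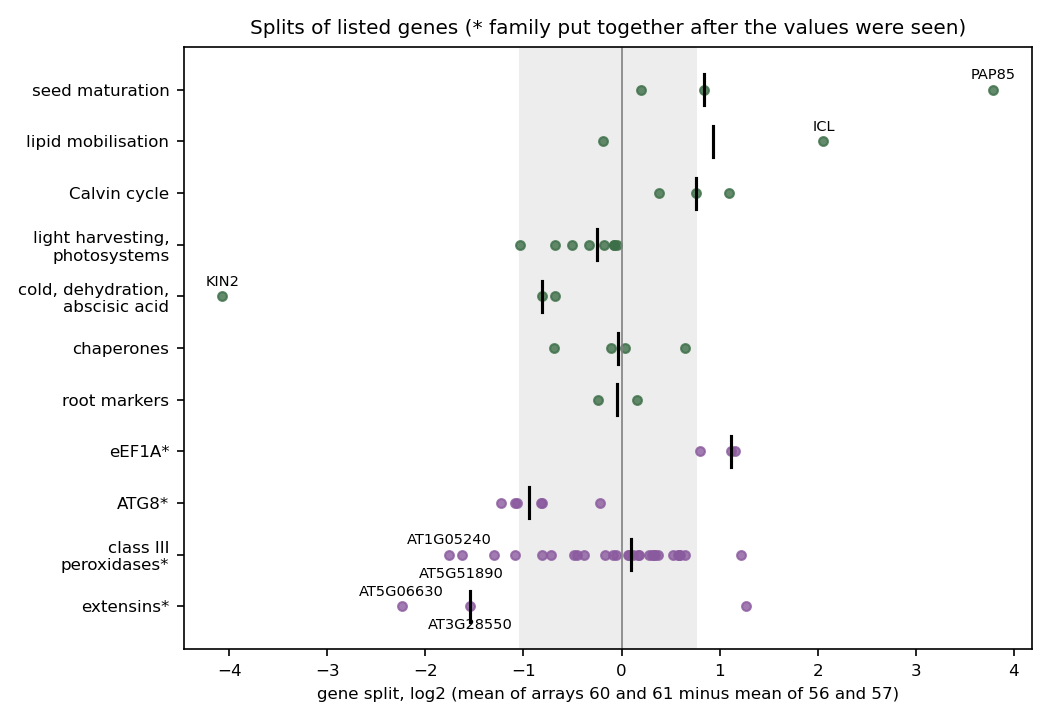
Gene splits (points) and their median (black bar) for the lists and, marked with an asterisk, for families put together after the values were seen, with the 5th to 95th percentile of all named genes shaded (-1.04 to 0.76). PAP85, ICL and KIN2, which were chosen for their splits, lie outside the shaded range, in lists of 3, 2 and 3 measured genes. The 8 light reaction genes lie between -1.03 and -0.05.

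ESTs without a named gene held the highest splits. The platform annotation left 6752 of the 11956 ESTs without a single current gene, and they gave 184 of the 329 ESTs past the threshold. Of the 12 ESTs with the highest splits 11 were unnamed. EST 5940 had log2 ratios of 0.43, 0.42, 7.52 and 7.84 on arrays 56, 57, 60 and 61 (split 7.25). EST 4227 had -0.13, -0.54, 6.85 and 6.41 (split 6.97). Splits of 3 or more were seen in 13 unnamed and 3 named ESTs, and splits of -3 or less in 2 unnamed and 7 named ESTs.

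The mean over the 4 arrays at 10 days is another contrast than the split, although a large split widens its error. By limma with Benjamini-Hochberg adjustment over all genes, 5 of the 69 genes (7.25%) had a mean different from 0, while 459 of all 3517 did (13.1%). The fit took the 4 arrays as separate replicates, although the labels state 2 independent biological experiments. SE and p therefore measure the spread between arrays and not between experiments. AT1G76960 had a mean of 3.56 ± 0.65 (SE, n = 4 arrays, limma adjusted p = 0.0195) and AT5G42530 one of 2.91 ± 0.52 (limma adjusted p = 0.018). AT4G31985 (1.60, limma adjusted p = 0.0332) and PAP85 (2.88, limma adjusted p = 0.0485) were also positive, and AT5G49440 was negative (-1.69, limma adjusted p = 0.0283). Each of the 5 was on the same side on 4 of 4 arrays. For PAP85 the call was lost whichever array was left out (limma adjusted p from 0.0568 to 0.118). The call of AT4G31985 was lost without array 56, 57 or 60, those of AT5G42530 and AT5G49440 without array 56 or 57, and that of AT1G76960 without array 56. Leaving out an array also cut the calls over all genes (last section), so the losses are not read as particular to these genes. ICL (1.32, limma adjusted p = 0.0827) and KIN2 (-0.90, limma adjusted p = 0.485) did not pass.

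With the pair as a covariate, limma called 22 of the 69 genes, and 527 of 3517 over all genes (15%). This fit takes the difference between the pairs out of the error, and that difference chose the genes, so the gain in calls among them follows from the rule and nothing is read from it.

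On the 21-day arrays 66 of the 69 genes were measured, and limma called 0 of them and 0 of all 2913 genes (0%). At an unadjusted limma p under 0.05 there were 8 of the 66 and 266 of the 2913, and the smallest adjusted p among the 66 was 0.447. PAP85 had log2 ratios of -0.07, -0.39, 0.04 and -0.28 on arrays b100, b90, t100 and t90, and ICL had 0.21, 0.57, 0.40 and -0.15. Both were close to the array medians on all 4 arrays, far from their values on arrays 60 and 61. KIN2 had 0.23, -1.22, -0.21 and -0.47. The median range over the 4 arrays was 1.03 in the 66 genes and 0.925 over all genes, a difference that was not tested.

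Arrays b90 and t90 shared low values in some of the genes lower on arrays 60 and 61, a pattern noticed in the data. AT4G14020 had 0.34, -2.10, -0.07 and -1.86 on arrays b100, b90, t100 and t90. AT5G54660 had 0.47, -1.99, -0.01 and -1.20, and AT5G62150 had -0.15, -1.37, 0.02 and -1.69. In AT4G14020, AT5G54660 and AT5G62150 the 2 arrays of the t90 and b90 titles were low and the others near 0. Together with AT2G23950 and AT4G17480, a predicted thioesterase, 5 of the 66 genes (7.58%) were at -1 or less on both arrays, against 37 of 2913 (1.27%). On every other pair of 21-day arrays 0 of the 66 genes were, and over all genes 1 to 10 of 2913 (0.0343% to 0.343%). At such shares 0 of 66 is not told apart from all genes. Genes at 1 or more on both arrays of a pair were not counted. AT5G42530, also lower on arrays 60 and 61, was above 1 on both b90 and t90. Each of the 5 low genes rested on 1 EST. At 10 days 87.0% of the 69 genes and 70.7% of all named genes rested on 1 EST, and averaging ESTs can make extreme values rarer. The shares were not matched for the number of ESTs, so their difference is not read as a trait of these genes. The correlation of b90 and t90 was 0.65 across the 66 genes and 0.35 across all 2913, and these genes are not independent replicates. Across the 66 genes the Pearson correlation of the 10-day split with the ratio on each 21-day array lay between -0.09 and 0.17.

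**Figure D5:**
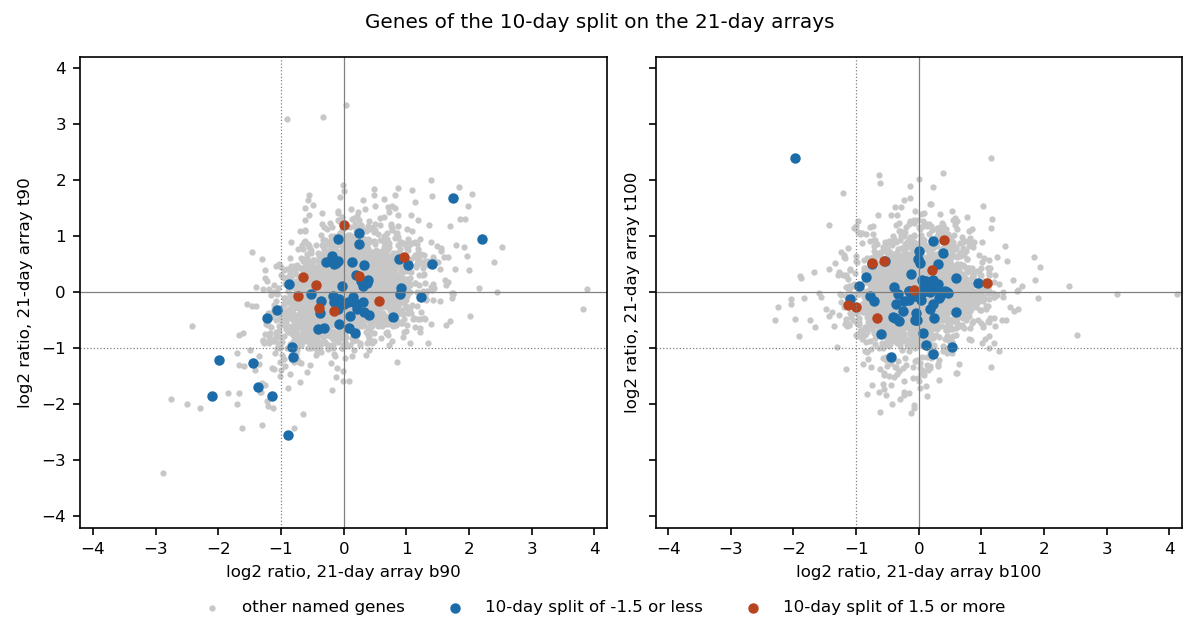
Log2 ratios at 21 days of all named genes (grey) and of the 66 measured genes with a 10-day split of 1.5 or more in size (red higher, blue lower on arrays 60 and 61), array b90 against t90 on the left and b100 against t100 on the right, with dotted lines at -1 and 3 genes outside the drawn range. On the left 5 blue points lie at -1 or less on both arrays, and on the right 0 do, where 1 of all 2913 genes does.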

How the data were processed

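Transcript ratios were measured on 4 arrays at 10 days and 4 at 21 days. The authors deposited channel ratios on a log10 scale. The scale was inferred, since the back-transformed values were ratios of 3 decimals on 7 arrays, while on array 56 the authors had rounded 96.9% of values to 2 decimals. The deposited columns had medians at or near 0. The labels name no scanner, dye, background correction, normalization or spot filter. The number of arrays limits the precision, and nothing assigns arrays to cultures or experiments, so p-values measure the spread between arrays only.

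Values were converted to log2 and centred on each array's median, and ESTs lacking a value on any array of their age were dropped (9 of 11965 at 10 days and 17 of 8829 at 21 days). Platform annotation paired 5216 ESTs at 10 days with 1 gene, 73 with several and 6676 with none. Of these, 5209 were brought to 3519 genes by Entrez identifier in the TAIR10.1 gene table, and at 21 days 3905 were matched to 2917 genes. ESTs of a gene were averaged. Means over 4 arrays were fitted with limma 3.58.1 in R 4.3.3 (intercept, eBayes, Benjamini-Hochberg at 0.05). The fit and the split were also run on simulated arrays drawn independently of each other. The measured arrays were correlated, so nothing is read from that run about these data.

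Named genes were the largest splits without overlap, up to 10 on either side, of which the higher side had 8. They also included genes with several ESTs past the threshold, list genes past it or at the ends of their list, and the 3 markers. The 3 genes on either side of the threshold and the 5 most like PAP85 completed them. Genes of the lower group under -1.5 described by role, AT4G31985, AT5G05570, near-threshold genes with several ESTs of one sign, single-spot examples, families and the 21-day genes were named outside this rule. The genes, lists and tests were chosen with earlier results of these data known. Alternatives were no centring, scaling, quantile normalization, removal of a local median over 36 spots on either side, other thresholds, robust eBayes, the pair as covariate, and leaving out each array.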

Additional observations from a re-analysis of the deposited data

Results flagged for a closer look

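Among 84 sets of 4 values, each of 1 gene at 1 age, single arrays stood apart from the other 3 of their age in 4 cases. The gap to the nearest array exceeded Dixon's 95% limit relative to the range, which chance also passes in about 1 in 20 groups. At 10 days many genes were chosen for a large split without overlap of the pairs, which leaves little room for 1 array to stand apart. That rate does not apply to them. At 21 days AT1G54410 was at -0.56 on array t90, with the others at -0.07. AT5G33370 was at 1.10 on array b100, with the others between 0.17 and 0.28. AT5G42530 was at -1.98 on array b100, with the others between 1.69 and 2.40. At 10 days LTI30 was at -0.75 on array 60, with the others between 0.30 and 0.47.

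In 3 genes all arrays of 10 days lay on one side and all arrays of 21 days on the other. AT1G04660 had a mean of 1.56 at 10 days and of -0.51 at 21 days. AT5G50460 had 1.06 and -0.07, and its values at 21 days, between -0.09 and -0.02, were close to the array medians. PYK10 had -0.25 and 0.44, with values between -0.41 and -0.11 at 10 days. The difference between ages was not tested, and the array types also differed.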

How the results depend on the processing

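No paired analysis was possible because the arrays of the 2 ages share no replicate number in their labels. Titles at 21 days share a number (b90 with t90, b100 with t100), whose meaning the labels do not state, and no groups were compared within that age. No centring, scaling to one spread, quantile normalization and local median removal gave 68, 57, 49 and 58 genes past the split of 1.5. Of these, 68, 52, 49 and 49 were shared with the 69. By every EST 65 genes passed, but 60 of the 69 genes had 1 EST and could not fail this. ICL, ECS1, AT3G03070 and AT1G54410 did fail it. At a threshold of 1, 1245 ESTs (518 higher, 727 lower) and 273 genes (76, 197) passed, and at 2, 112 ESTs (33, 79) and 22 genes (5, 17). Leaving out 1 array gave 461 to 652 ESTs (146 to 324 higher, 244 to 469 lower) and 102 to 157 genes (11 to 65 higher, 61 to 141 lower). The limma mean at 10 days called 2031 ESTs and 459 genes. With the local median removed it called 3086 ESTs, 781 genes and 11 of the 69. With the pair as covariate it called 22 of the 69. Leaving out 1 array gave 1038 to 1210 ESTs, 99 to 195 genes and 0 to 5 of the 69. At 21 days 0 to 3 ESTs passed without 1 array. PAP85 lost its call under scaling (limma adjusted p = 0.0504). The causes were not tested. Of 104 splits of 26 named genes under 4 settings, 15 came under the threshold and 0 changed sign. Signal over background was not analysed here.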
